A study of Rattus norvegicus with 15 samples.

Results

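The natriuretic peptide system was followed through 6 genes, the peptide precursors Nppc, Nppa and Nppb and the receptors Npr1, Npr2 and Npr3. They were represented by 8 of the 41012 probes of the array, which carry 35561 distinct gene names, and every probe with one of these names was kept. The genes were chosen by name, and the set was chosen because the level of Nppc separated rats 1 to 4 from rats 5 to 8 in these same samples. Levels in these 2 sets of 4 rats, called the first and the second set, are therefore given for the members as a description, with no test of one set against the other. The RNA came from the olfactory epithelium, the sensory sheet at the back of the nose, of 8 naive Brown Norway rats aged 6 weeks, which received no odorant or other treatment. Rats 1, 2, 5 and 6 were males, and rats 3, 4, 7 and 8 were females. Each nostril (A and B) gave 1 array with 1 dye, except that rat 1 gave only nostril A, so that 15 arrays were made. The series was designed to compare sexes, nostrils and animal suppliers, but the labels do not tie a rat to its supplier, and suppliers were not analysed here.

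Natriuretic peptides are secreted hormones closed into a ring by a disulfide bond. Atrial natriuretic peptide (from Nppa) and B-type natriuretic peptide (from Nppb) are best known as heart hormones that lower blood pressure, whereas C-type natriuretic peptide (from Nppc) acts close to where it is made, in growing cartilage and bone, in vessel walls and in the nervous system. Npr1 binds the atrial and B-type peptides and Npr2 binds the C-type peptide, and both receptors are guanylyl cyclases that make the second messenger cGMP inside the cell. Npr3 has no cyclase domain and removes the peptides from the surroundings. In olfactory neurons cyclic nucleotides open the channel that turns odorant binding into an electrical signal, and a small class of these neurons uses cGMP made by another membrane guanylyl cyclase, Gucy2d.

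Each probe was a 60-base oligonucleotide, and the values of a gene are those of its probe. Positions are those of the array annotation, on build rn3 of the rat genome. That annotation gives no exons or introns. Nppc was measured by A_44_P240696, at chr9:85617841-85617900 on the minus strand. Nppb was measured by A_43_P14894, designed on its mRNA at chr5:165073752-165073811 on the plus strand, and by a pair of probes designed on an expressed sequence tag from rat heart, on the minus strand. The pair overlapped by 40 bases, A_44_P411756 at chr5:165072992-165073051 and A_44_P411757 at chr5:165073012-165073071, so that both lie on the strand opposite to the mRNA probe. The first 30 bases of these 4 probes are shown, since the Nppc probe carries the main difference and the Nppb probes disagree with each other. Capitals mark the bases that the overlapping pair shares.
Nppc A_44_P240696: ggacggtttttaaagtgactgacaaaacca
Nppb A_43_P14894: tgttgctgattttctacaagactgtttctt
Nppb A_44_P411757: tcctggatccggaaggcgctGTCTTGAGAC
Nppb A_44_P411756: GTCTTGAGACCTAAGGACTCTTTTTAGAAG
The other members had 1 probe each. Nppa was read by A_44_P317600 (chr5:165084824-165084883, plus strand), 11.1 kb from the Nppb mRNA probe. Npr2 lies on the same chromosome (A_42_P726573, chr5:60127922-60127981, plus strand). Npr1 (A_43_P15245, chr2:182675022-182675081) and Npr3 (A_44_P552517, chr2:61211800-61211859) were both annotated on the minus strand of chromosome 2. The Nppa and Npr1 probes were printed 10 times on each array and the others 1 time.

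Levels are given as log2 of the signal over the median signal of the array, so that 0 is the level of the median probe. That median was 57.4 to 83.4 intensity units (68.1 to 83.4 on arrays of rats 1 to 4, 57.4 to 74.2 on those of rats 5 to 8). A signal was called detected when the scanner software found it well above background, for which the lowest signal was 10.01 to 14.5 intensity units. The arrays lay on 4 slides, with rats 1 to 4 on slides 1 and 2 and rats 5 to 8 on slides 3 and 4, so that slide and this division of the rats cannot be told apart. All 7 probes for olfactory neuron markers were detected on at least 11 arrays. Of 12 probes for endothelial markers, 3 were expressed by the same measure (Kdr and 1 of 2 Vwf probes on 15 arrays, 1 of 2 Tie1 probes on 13) and 7 were detected on no array, among them both probes for Flt1 and both for Tek.

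By the study's rule, a probe detected on at least 11 of the 15 arrays was called expressed and a probe detected on 1 to 10 weakly expressed. Of the 8 probes, 3 were expressed (Nppc, Npr1 and Npr2, each detected on all 15 arrays), 3 were weakly expressed (Nppa on 6 arrays, Npr3 on 3, and Nppb A_44_P411756 on 1) and 2, both for Nppb, were detected on no array. One ligand and both cyclase receptors were thus above the limit throughout, and the clearance receptor and the heart peptides were near or below it. With the looser call of a positive and significant signal, 5 probes were expressed, Nppa and Npr3 being added. Probes had to be detected on at least 7 arrays to be tested, and the 3 expressed members passed.

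Nppc stood higher in rats 1 to 4 than in rats 5 to 8. In rats 1 to 4 the log2 level was 1.70 in nostril A of rat 1, 1.65 and 1.70 in nostrils A and B of rat 2, 0.90 and 1.70 in rat 3, and 1.45 and 0.92 in rat 4. In rats 5 to 8 it was -0.11 and -0.27 in rat 5, -0.46 and -0.58 in rat 6, -0.21 and -0.36 in rat 7, and -0.34 and -0.17 in rat 8. Every array of rats 1 to 4 lay above every array of rats 5 to 8, and the lowest of the former and the highest of the latter were 1.01 apart on the log2 scale. In intensity units, the signals were 129 to 247 in rats 1 to 4 and 40.8 to 63.5 in rats 5 to 8, and even the lowest was 2.82 times the detection limit of its array. With the nostrils of a rat averaged, the mean log2 level was 1.47 ± 0.26 (SD, n = 4 rats) in rats 1 to 4 and -0.31 ± 0.14 (SD, n = 4 rats) in rats 5 to 8. The difference, 1.78, amounts to a 3.43-fold higher level. Background correction and quantile normalization by another method (normexp), which adds 50 intensity units to each signal, lowered it to 1.15, or 2.21-fold. In bulk tissue, fewer cells of a type and less RNA per cell cannot be told apart.

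**Figure D1:**
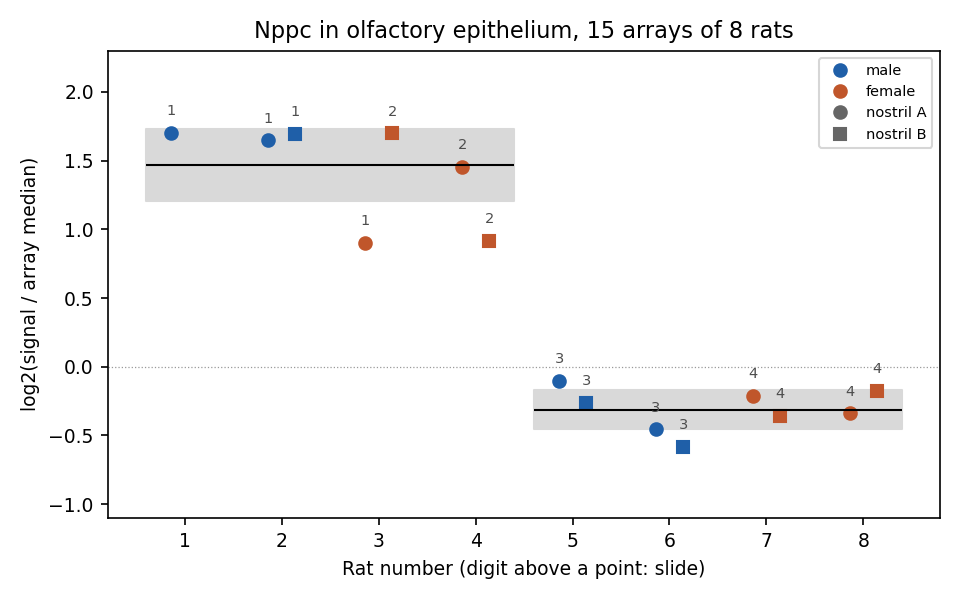
Nppc level on each array, as log2 of signal over array median (y axis), by rat (x axis), with color for sex, symbol for nostril and a digit for the slide; lines and gray bands are the mean ± SD of the rats in each set. Every array of rats 1 to 4 lies at 0.90 or above and every array of rats 5 to 8 at -0.11 or below.

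Ordered by level, the rats ran 1, 2, 3, 4, 5, 8, 7 and 6. The gap between rats 4 and 5 was 1.37 on the log2 scale, while the other gaps between neighbors in this order were 0.03 to 0.37. The gap between rats 4 and 5 is the division on which Nppc was chosen, so that nothing follows from its size. The nostrils of a rat differed with a within-rat SD of 0.27. Of the other gaps, only that between rats 2 and 3 exceeded this spread. The mean of the arrays on a slide was 1.49 on slide 1 and 1.36 on slide 2, against -0.35 on slide 3 and -0.27 on slide 4. Female 3, the rat whose nostrils were on different slides, had 0.90 on slide 1 and 1.70 on slide 2.

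All tested probes give the background of such a separation. Among the 27625 tested probes, 1271 (4.6%) had all 4 rats of the first set above all 4 of the second, and 3135 (11.3%) were separated in either direction. The difference of Nppc ranked 9th in absolute size among these probes. Since the gene was chosen on this comparison, nothing follows from the rank. Of the cell type lists, only the bone markers had summed levels that did not overlap between the sets of rats. The 7 tested bone probes summed to 3032 to 4949.9 times the array median in rats 1 to 4 and to 4994 to 7796 in rats 5 to 8, and 2 of the 7 (Spp1 and 1 of 3 Col1a1 probes) were lower in every rat of the first set, while none passed at 1% (limma). The probe for Sp7, which defines bone-forming cells, was detected on no array. Their part in the Nppc difference was not tested. The summed levels of cartilage markers (142 to 220.3 against 192 to 275) and of olfactory neuron markers (1522 to 1752 against 1524 to 1773) overlapped between the sets, as did those of endothelium, blood, skeletal muscle, heart muscle, and glands with supporting cells. The 12 tested cartilage probes differed in both directions, from -0.93 (Col11a2) to 0.66 (Matn1) on the log2 scale, with a median of -0.14. Of the 4 probes for Sox9, a defining cartilage gene, 2 were expressed (on 15 and 13 arrays) and 1 was detected on no array.

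Sex was a comparison that had not been used to choose Nppc. The mean Nppc level was 0.49 ± 0.88 (SD, n = 4) in females and 0.67 ± 1.19 (SD, n = 4) in males, and the 4 males, from -0.52 to 1.70, spanned the range of the 4 females, from -0.29 to 1.30. The difference, females minus males, was -0.18 on the log2 scale (95% interval -1.50 to 1.14) and did not pass the test (limma, adjusted p = 0.906 over all tested probes). This interval is wide because each sex held rats from both sets. With the sets as a second term the same difference had a standard error of 0.13 in place of 0.59 and still did not pass (limma, adjusted p = 0.411). Within slide 1, the slide with arrays of both sexes, female 3A stood 0.78 below the mean of males 1 and 2. This within-slide value, which a fit with slide as a block also gives (-0.78), rests on 1 female array, while nostril B of the same female, on slide 2, had 1.70, against 1.65 to 1.70 on the arrays of males 1 and 2. Among all probes, 12 of 27625 (0.0434%) passed between the sexes at 1%, and 3134 (11.3%) had non-overlapping sexes. No member did either.

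The step between the sets was 2.04 in males (rats 1 and 2 against 5 and 6) and 1.51 in females (rats 3 and 4 against 7 and 8). These steps make up the difference on which Nppc was chosen, and neither step was tested. The step in females minus the step in males was -0.53 (95% interval -0.95 to -0.10) and did not pass (limma, adjusted p = 0.403). Between nostrils of the same rat no difference in Nppc passed. Nostril B was higher in 3 rats and lower in 4, with a mean difference of 0.01 (95% interval -0.29 to 0.30; limma with rat as a block, adjusted p = 0.993). The largest difference between nostrils was 0.80, in rat 3.

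Nppa, the precursor of the atrial peptide, was near the limit of detection and varied between nostrils of the same animal. It was detected in both nostrils of rats 2 and 8 and in nostril A of rats 4 and 6. In intensity units, nostrils A and B gave 19.7 and 19.4 in rat 2, 42.9 and 9.6 in rat 4, 18.1 and 7.9 in rat 6, and 29.4 and 19.6 in rat 8. The 10 copies of the probe gave 42.9 ± 3.67 (SD of the 9 spots kept) in nostril A of rat 4 and 9.57 ± 1.80 (SD of 10 spots) in nostril B. This difference exceeded the spread between spots within an array, which does not measure the spread between arrays or RNA samples. On the other 9 arrays, where it was not detected, the signal was 2.8 to 14.4. The log2 level was lower in nostril B in 6 of 7 rats and at the floor in both nostrils of rat 7. As Nppa had not passed the filter, its nostril difference was tested only in the fit without a filter on dim probes, where it was -0.77 (95% interval -1.44 to -0.10) and did not pass (limma, adjusted p = 0.896 over 40820 probes). By set, Nppa averaged -2.29 ± 0.42 in rats 1 to 4 and -2.45 ± 0.71 in rats 5 to 8 (SD, n = 4 each), and by sex -2.43 ± 0.76 in females and -2.32 ± 0.32 in males, with overlapping rats in both divisions. It was detected on 3 arrays of each set and 3 of each sex.

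Nppb, the precursor of the B-type peptide, was not detected by its mRNA probe on any array, with signals of -7.0 to -0.7 intensity units. The spot of array 4A was left out for A_43_P14894 and for A_44_P411757. A_44_P411756, on the opposite strand, was detected on 1 array, nostril A of male 5, with 27.7 intensity units, against 8.0 in nostril B of the same rat and -2.4 to 8.2 on the other 13 arrays. A_44_P411757, which shares 40 bases with it, had -4.1 intensity units on that array of male 5 and at most 0.6 on any other. The overlapping probes thus disagreed on the only array where Nppb was called.

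**Figure D2:**
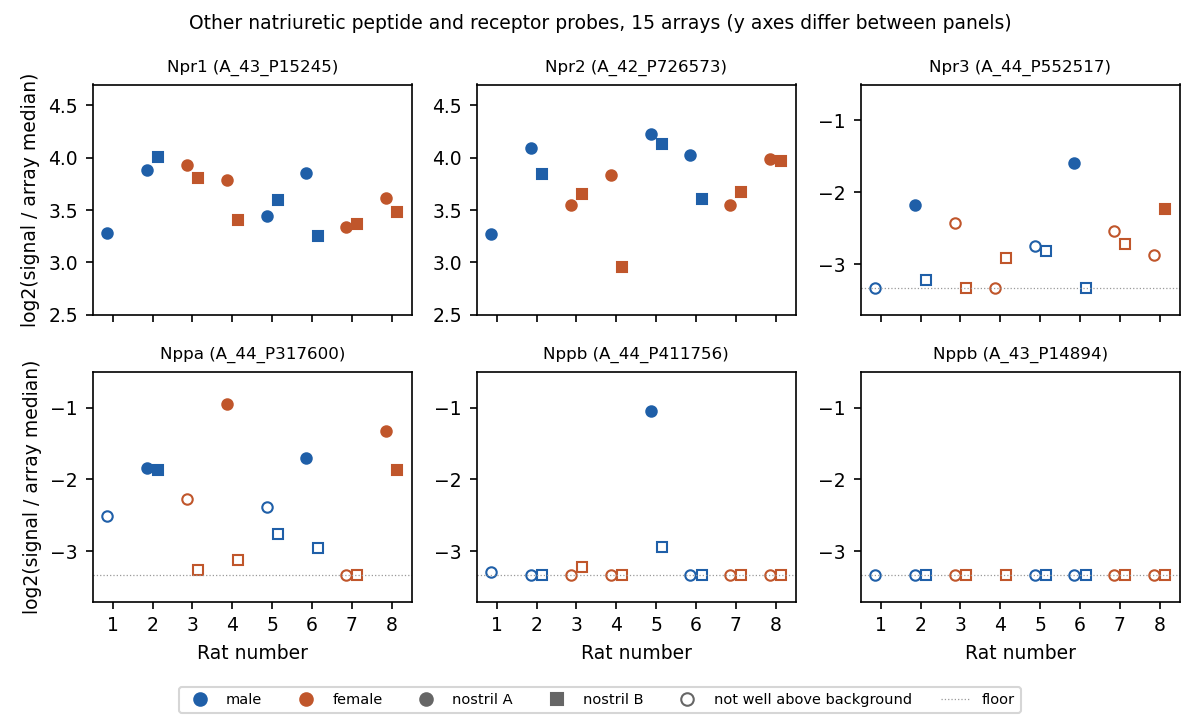
Levels of the other natriuretic peptide and receptor probes on each array, as log2 of signal over array median (y axis, with its own range for the upper left and middle panels), by rat (x axis); open symbols were not well above background, and the dotted line is the floor at -3.32. Npr1 and Npr2 were detected on all 15 arrays, Nppa on 6, Npr3 on 3, Nppb A_44_P411756 on 1 and Nppb A_43_P14894 on none; Nppb A_44_P411757, also detected on none, is not drawn.

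Npr2, the cyclase receptor for the C-type peptide, was detected on every array, with 646 to 1202 intensity units. Its log2 level was 3.27 in rat 1, 3.97 in rat 2, 3.60 in rat 3 and 3.39 in rat 4, and 4.18, 3.82, 3.61 and 3.98 in rats 5 to 8. The means were 3.56 ± 0.30 in rats 1 to 4 and 3.90 ± 0.24 in rats 5 to 8 (SD, n = 4 each). The difference of -0.34 was opposite in sign to that of its ligand, and the rats of the sets overlapped. Females averaged 3.65 ± 0.24 and males 3.81 ± 0.39 for Npr2 (SD, n = 4 rats each), and the difference was -0.16 (95% interval -0.59 to 0.26; limma, adjusted p = 0.691). It ranged from -0.34 without rat 1 to -0.04 without rat 5, and did not pass whichever rat was left out. Nostril B differed from nostril A by -0.20 (95% interval -0.45 to 0.05; limma, adjusted p = 0.781), and was lower in 5 of 7 rats, by as much as 0.88 in rat 4. Without rat 4 the nostril difference of Npr2 was -0.09.

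Npr1, the cyclase receptor for the atrial and B-type peptides, was also detected on every array, with 582 to 1144 intensity units. Its repeated spots varied little, with a coefficient of variation of 2.62 to 5.81% per array. The log2 level was 3.28, 3.95, 3.87 and 3.59 in rats 1 to 4 and 3.52, 3.55, 3.36 and 3.55 in rats 5 to 8. The means, 3.67 ± 0.30 and 3.49 ± 0.09 (SD, n = 4 each), differed by 0.18, and the rats overlapped. Females had 3.59 ± 0.21 and males 3.57 ± 0.28 (SD, n = 4 each), with a difference of 0.02 (95% interval -0.31 to 0.35; limma, adjusted p = 0.966). Between nostrils the difference was -0.14 (95% interval -0.33 to 0.06; limma, adjusted p = 0.789), and it was -0.06 without rat 6. The difference between the sets of rats, 0.18, was 0.31 without rat 1, 0.08 without rat 2 and 0.11 without rat 3. A sex difference in Npr1 of more than 0.35 on the log2 scale lay outside the interval in these rats.

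Npr3, the clearance receptor, was detected on 3 arrays, at 15.7 intensity units in nostril A of rat 2, 19.5 in nostril A of rat 6 and 15.3 in nostril B of rat 8. On the other 12 arrays its signal was 5.3 to 12.9. The other nostril of each of these 3 rats was not called. The mean log2 level was -3.0 ± 0.27 in rats 1 to 4 and -2.60 ± 0.14 in rats 5 to 8 (SD, n = 4 each), with overlapping rats and 4 arrays at the floor. None of the other members was separated between the sets as Nppc was.

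The genes around these receptors were described through a list of 51 genes of cGMP signaling and peptide handling, 48 of which were named on the array, by 57 probes. Of these probes 39 were expressed, 6 weakly expressed and 12 not detected. Between rats 1 to 4 and rats 5 to 8, 0 of the 40 tested probes passed at 1%, and 11 had an unadjusted p under 0.05 (4 higher in rats 1 to 4, 7 lower). Over all probes 5 of 27625 (0.0181%) passed and 5285 (19.1%) had an unadjusted p under 0.05. The test named in the study's methods, run per probe and adjusted, also passed 0 of the 40 and gave 11 with an unadjusted p under 0.05. The median difference of the list was 0.03 on the log2 scale, against -0.02 over all tested probes, and the differences ran from -0.64 to 0.49.

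The list probes with the largest differences were all lower in rats 1 to 4. Cnga1, a subunit of the cGMP-gated channel of rod photoreceptors, had log2 levels of 1.17, 1.14, 1.09 and 1.17 in rats 1 to 4 and 1.70, 1.89, 1.71 and 1.83 in rats 5 to 8. The difference was -0.64 ± 0.07 (SE), with no overlap, and just missed the threshold (limma, adjusted p = 0.0189). Ostn, which encodes osteocrin, a bone and muscle peptide that binds Npr3, had 2.11, 2.91, 1.48 and 1.95 against 3.24, 2.17, 2.71 and 2.92. Its difference was also -0.64, but its rats overlapped (SE 0.30; limma, adjusted p = 0.272). Tgfb1, a growth factor known to raise Nppc in vessel cells, differed by -0.54 ± 0.18 (SE), with overlapping rats (limma, adjusted p = 0.157).

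By role, the 10 tested probes (9 genes) for cyclic nucleotide phosphodiesterases, which break down cAMP and cGMP, had a median difference of 0.18. Of these, 8 of the 10 were above 0, beside 12793 of all 27625 tested probes. No role was tested as a set. The 10 probes for other guanylyl cyclases and their peptides or activators had a median of 0.07, with 5 above 0. The 5 probes for channel subunits had a median of -0.16, the 2 for inhibitory G protein subunits -0.25, the 4 for cGMP kinases and their substrates 0.04, the 4 for peptide processing and clearance -0.12, and the 5 for known regulators of Nppc 0.04. Separation of the sets was seen for 7 of the 40 probes, named here after their values were seen. Pde1a, Pde10a and 1 of 2 Itpr1 probes were higher in rats 1 to 4, and Cnga1, Cnga2, Gnai3 and Gucy1b3 were lower. The probes of Itpr1, a calcium release channel regulated through the cGMP kinase, differed in sign, with 0.23 for A_44_P176606 and -0.19 for A_44_P215056, and neither passed (limma, adjusted p = 0.174 and 0.217). Cnga2, the main subunit of the olfactory channel, differed by -0.18 (limma, adjusted p = 0.164). That share, 7 of 40, stands beside 11.3% of all tested probes.

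**Figure D3:**
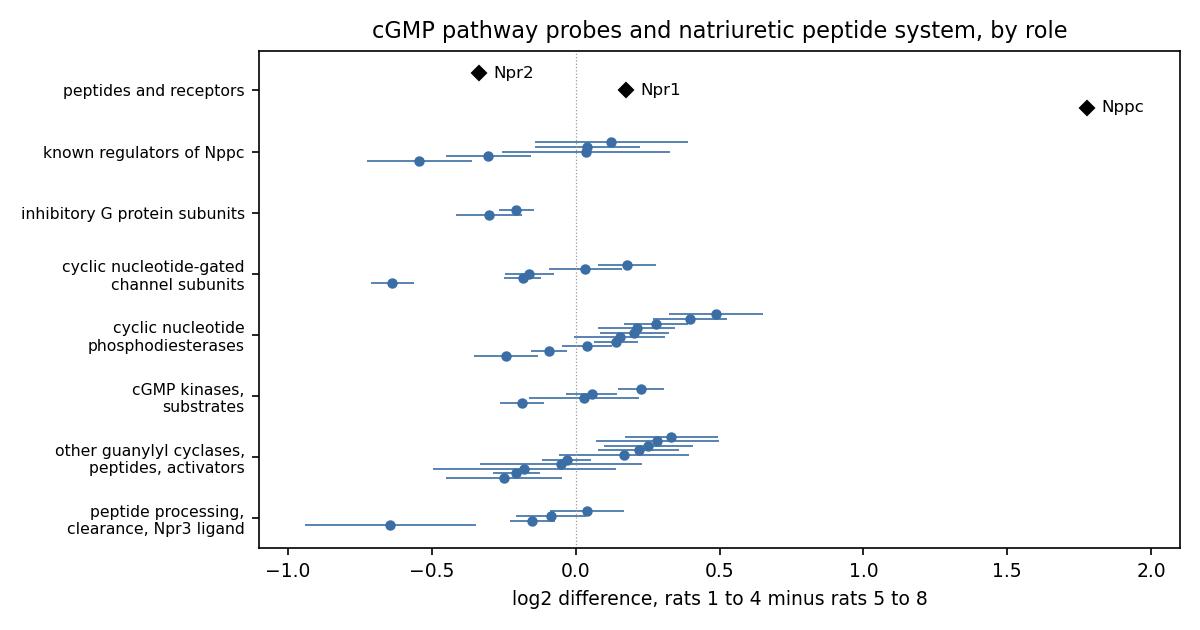
Differences between rats 1 to 4 and rats 5 to 8 on the log2 scale (x axis) for the 40 tested probes of the cGMP pathway list, by role (y axis), with standard errors, and for the 3 tested members (diamonds, without error). The list probes lie between -0.64 and 0.49, while Nppc lies at 1.78.

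Between females and males 0 of the 40 list probes passed, and 6 had an unadjusted p under 0.05 with limma and 5 with the test of the methods. Over all tested probes, 4731 (17.1%) had an unadjusted p under 0.05 between the sexes with limma and 4474 with the test of the methods. Il1b, an inflammatory cytokine, had the largest difference, -0.51 ± 0.25 (SE; limma, adjusted p = 0.325), with 1.85 ± 0.36 in the 4 females and 2.36 ± 0.49 in the 4 males (SD). Its other probe differed by -0.32. Gucy1b2, a subunit of soluble guanylyl cyclase, had -2.05 ± 0.20 in the females and -2.55 ± 0.63 in the males (SD; difference 0.49, limma, adjusted p = 0.408). Rat 1, at the floor, lay below all the others in Gucy1b2, and the difference was 0.23 without rat 1, 0.75 without rat 2 and 0.10 with normexp. Gucy1a2, another subunit, had -1.75 ± 0.14 and -1.29 ± 0.35 (SD, n = 4 each). Every male was above every female in Gucy1a2, but the difference of -0.46 did not pass (limma, adjusted p = 0.231). Sexes did not overlap for 3 of the 40 list probes, beside 11.3% of all tested probes. The others, named after their values were seen, were Pde1b, higher in males, and Pcsk6, higher in females by 0.31 (limma, adjusted p = 0.128). Gucy2d, the cyclase of the cGMP-using olfactory neurons, named for that role and after its value was seen, was detected on 13 of 15 arrays, and its sex difference of 0.41 did not pass (limma, adjusted p = 0.435).

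Between nostrils 0 of 27574 probes passed at 1% (0%), 1623 had an unadjusted p under 0.05, and 0 passed by the test of the methods, with 1347 under 0.05. In the list 3 of 40 had an unadjusted p under 0.05. The largest differences, nostril B minus nostril A, were -0.40 for Gucy1b2, -0.28 for Pde9a, a phosphodiesterase with high affinity for cGMP, and -0.27 for Gucy1a2 (limma, adjusted p = 0.781 for each). That compares with 5.89% of all probes under 0.05 between nostrils. The list probes under 0.05 were Pde9a and Pde5a, lower in nostril B, and Gucy2c, higher in nostril B by 0.14. None of them passed (limma, adjusted p = 0.781 for each). Pde5a, which differed by -0.26, and Gucy2c are named after their values were seen.

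Whether probes next to Nppc on chromosome 9 followed it was asked with a window of 500 kb on each side of the Nppc probe. The window held 23 other probes, of which 13 were tested. None of the 13 passed at 1% between the sets, and 4 had an unadjusted p under 0.05 with limma and 3 with the test of the methods, by which 0 passed as well. This stands beside 19.1% of all tested probes under 0.05 with limma. Differences ran from -0.17 to 0.37 with a median of 0.06. The nearest tested gene on one side was Cops7b, a subunit of the COP9 signalosome, 69.8 kb away, which differed by 0.06 ± 0.10 (SE; limma, adjusted p = 0.749). On the other side it was RGD1560168, now named Dis3l2, an exoribonuclease, 220.0 kb away, with 0.07 ± 0.08 (SE, limma, adjusted p = 0.658). A brighter probe of RGD1560168, 420.9 kb away, differed in the other direction, by -0.16 ± 0.07 (SE, limma, adjusted p = 0.239). M55017, annotated as the nucleolin gene and named here after its value was seen, was the only 1 of the 13 whose rats did not overlap, against 11.3% of all tested probes, at 0.37 ± 0.07 (SE; limma, adjusted p = 0.0468), while the Ncl probe nearby differed by 0.13. Within 1 Mb, 40 probes were tested, 0 passed at 1%, and the largest difference was 0.71.

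**Figure D4:**
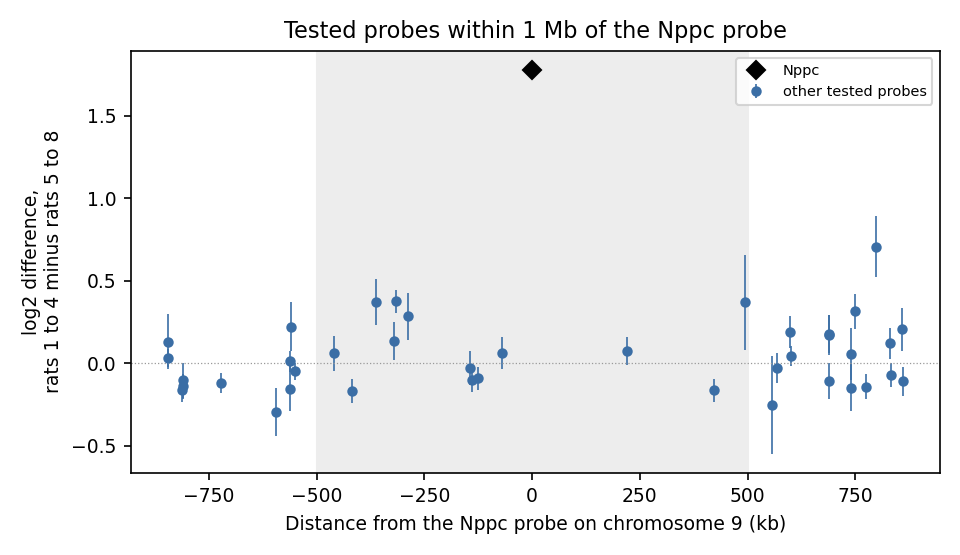
Difference between rats 1 to 4 and rats 5 to 8 on the log2 scale (y axis, bars are standard errors) for the tested probes within 1 Mb of the Nppc probe, by distance in kb (x axis); the gray band is the window of 500 kb. Nppc lies at 1.78 (no error drawn) and its neighbors within the band between -0.17 and 0.37.

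The probes whose profile over the 8 rats was nearest to that of Nppc were found by the root mean square difference of log2 levels, each probe centered on its own mean, among the 27624 other tested probes. The 5 nearest were TC566878, an unnamed transcript on chromosome 14 (0.355), XM_344204, a hypothetical protein also on chromosome 14 (0.356), AI072072, an expressed sequence tag on chromosome 13 (0.388), Rasgrp4, a Ras activator known from mast cells (0.412), and RGD1566342, annotated as similar to the transporter Abcb5 (0.441). The sixth was at 0.445, close to the fifth, and the median over all probes was 0.929. The first 4 separated the sets in the same direction as Nppc, which the measure itself favors, by 1.25, 1.24, 1.37 and 1.07 on the log2 scale in that order. RGD1566342 was well above background on all 7 arrays of rats 1 to 4 and on none of the 8 of rats 5 to 8. It thus passed the filter only through the set where it was high, and is not counted as separated. Its difference has only a bound, at least 1.39-fold (from the lowest signal well above background on each array, or the probe's own where higher). Its place among the nearest profiles rests in part on values below the limit. TC566878, XM_344204 and RGD1566342 were dim, and their nostrils differed by up to 1.16, 1.57 and 1.19. In rats 5 to 8 TC566878 was detected on 5 of 8 arrays and XM_344204 on 4. Npr1 stood at 0.852 and Npr2 at 1.09, ranks 5099 and 25715, so that neither receptor was among the close profiles.

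**Figure D5:**
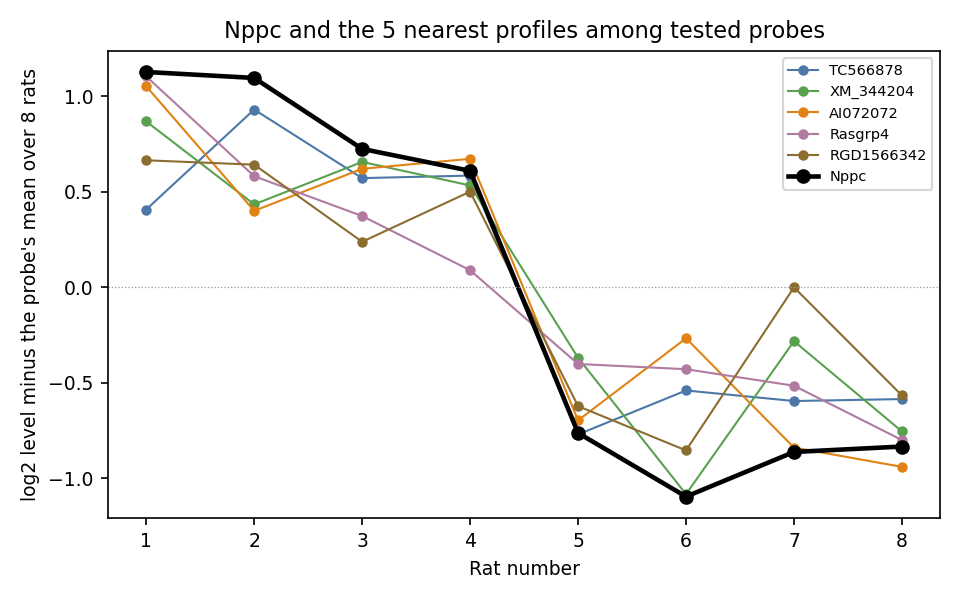
Levels of Nppc (black) and of the 5 probes with the nearest profiles, as log2 level minus the mean of the probe over the 8 rats (y axis), by rat (x axis). Nppc and the first 4 probes are higher in rats 1 to 4 than in rats 5 to 8, by 1.07 to 1.78 in the means. RGD1566342 was not well above background in rats 5 to 8, so that its drawn values there lie below the limit.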

How the data were processed

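The authors labeled the RNA of each nostril with Cy3, hybridized it alone to Agilent 60-mer whole rat genome arrays and deposited the spot intensities of Feature Extraction 9.5.1.1, corrected within the array for background and spatial trend. They also deposited 0 or 1 flags, per the file headers, and a ratio table, of whose 20466 bright rows 99.96% came within 2% of the signal divided by the array median and then the probe median. Here, flagged spots were left out, spots of a probe averaged, and signals divided by the array median, floored at 0.1 and put on the log2 scale. Probes detected on at least 7 arrays were tested (27625; 27574 for nostrils).

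Nostrils of a rat were averaged before sexes or sets of rats were compared, because the rat is the independent unit, and nostrils were compared with rat as a block, since the labels give nostrils A and B of the same numbered rat. Tests used limma 3.58.1 in R 4.3.3 (lmFit, eBayes with trend), two-sided, with Benjamini-Hochberg adjustment over all tested probes at 1%. Only the comparison of 4 rats against 4 rats had been run on simulated data. The comparison of nostrils and the fits with blocks had not. The number of animals limits the precision. Genes were named by a rule: every member, the 3 list probes with the largest differences in each comparison and any that passed, the 5 nearest profiles, and the nearest tested gene on each side of Nppc. Markers of the cell type lists were named as well, and other genes were named after their values were seen. The members and lists were chosen with earlier results of these data known.

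Alternatives were the 75th percentile for scaling, a floor of 0.01, normexp (offset 50) with quantile normalization, the ratio table, detection on 11 arrays or no filter, the methods' t-test, slide, rat, sex or set in the fit, a window of 1 Mb and leaving out each rat.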

Additional observations from a re-analysis of the deposited data

Results flagged for a closer look

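Of 12 sets of 4 rats (a member probe in 1 sex, leaving out probes at the floor throughout), 2 had a ratio of gap to range above Dixon's critical value, both for the Nppb probe A_44_P411756. Chance flags about 1 in 20 sets, but that rate does not apply here, because rats of both sets had been put at the floor of -3.32. In females, rat 3 stood at -3.27 and the others at the floor, so that the ratio was 1 by construction and says nothing about rat 3; the probe was not detected in any female. In males, rat 5 stood at -1.99 on the log2 scale against -3.29 for the nearest male, a gap of 0.972 of the range, through the single array on which this probe was detected; the lower end of that range was set by the floor.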

How the results depend on the processing

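The Nppc difference between rats 1 to 4 and rats 5 to 8, 1.78, was 1.70 to 1.87 when each rat was left out in turn and 1.15 with normexp and quantile normalization, which adds 50 intensity units to each signal. It was 1.78 to 1.79 with the other scalings and the ratio table. The number of expressed member probes, 3 whichever rat was left out, was 5 with the looser call. Counts of members that passed between sexes or nostrils, and of list probes that passed between sets of rats, sexes or nostrils, were 0 in every setting run, including 0 without each rat. For probes within 500 kb of Nppc the count was 0 without each rat and 1 with rat as a random block (M55017, adjusted p = 0.0040 by limma). No member moved past the threshold in any setting.

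Differences that had not passed or were not tested changed sign, or moved by over 1.5 times, as follows; the cause was not tested. The sex difference of Nppc, -0.18, ranged from -0.58 to 0.16 when each rat was left out, above 0 without rats 1 (0.16), 2 (0.15), 7 (0.08) or 8 (0.07), and was -0.78 with slide as a block, a value that rests on 1 female array, and -0.10 with rat as a random block. That of Npr1, 0.02, ranged from -0.08 to 0.14 (-0.0819 without rat 1, -0.0748 without rat 3, -0.0009 without rat 5), and was -0.0105 with the 75th percentile, -0.0103 with normexp, 0.21 with slide as a block and -0.0056 with rat as a random block. That of Npr2, -0.16, ranged from -0.34 (without rat 1) to -0.04 (without rat 5). That of Gucy1a2, -0.46, was -0.29 without rat 2 and -0.14 with normexp. That of Gucy1b2, 0.49, ranged from 0.23 to 0.75 and was 0.10 with normexp and -0.10 with slide as a block. The nostril difference of Nppc, 0.01, ranged from -0.12 to 0.10 (-0.0004 without rat 2, -0.12 without rat 3, -0.02 without rat 8), and was 0.0012 with the 75th percentile and 0.02 with normexp. The nostril difference of Npr1, -0.14, was -0.06 without rat 6, and that of Npr2, -0.20, was -0.09 without rat 4. For Gucy1a2 it was -0.27, and -0.12 without rat 4 and -0.08 with normexp. For Gucy1b2 it was -0.40, and -0.23 without rat 4, -0.25 without rat 5 and -0.09 with normexp. Between the sets of rats, the Npr1 difference ranged from 0.08 (without rat 2) to 0.31 (without rat 1). Next to Nppc, Cops7b, 0.06, ranged from 0.01 (without rat 7) to 0.11 (without rat 8) and was 0.03 with normexp, and RGD1560168, 0.07, was 0.04 without rat 5 and 0.04 with normexp.

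Nostrils were paired by rat. Without this block the count of members that passed stayed 0, and that of list probes 0. The number of animals, with 2 rats of each sex in each set, limits the precision, and for Nppa, Nppb and Npr3 the signal was near background.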
